A study of Mus musculus with 9 samples.

Results

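The subject of these data is the chromatin at the nuclear genes of the mitochondrial ribosome and the respiratory chain. Members were all protein-coding rows of the deposited window table whose gene name begins with Mrpl or Mrps and a digit, Nduf, Uqcr, Cox and a digit, or Atp5, together with Sdha, Sdhb, Sdhc and Sdhd. The choice used names only and no measured value, but it was made with earlier results of these data known. It gave 151 windows of 140 genes, out of 17641 windows of 14969 genes. The members divide into 60 genes of the mitochondrial ribosome and 80 of the respiratory chain and its assembly. A window is a stretch of 401 bp in which the authors counted the reads of each library, and its value is given in scaled reads, the number of reads times 1 scaling factor per library.

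The study compared mouse pancreatic endocrine cell lines. Chromatin immunoprecipitation followed by sequencing (ChIP-seq) was done with an antibody labelled as specific for H3K9me3, trimethylated lysine 9 of histone H3. The alphaTC1 line, which makes glucagon, was transduced either with an empty vector (n = 2 libraries) or with shRNA against Smndc1 (n = 2), each for 5 days. The betaTC3 line, which makes insulin, was left untreated (n = 2), and each of the 3 groups also had 1 input sample. A comparison of betaTC3 with either alphaTC1 group is therefore also one of untransduced with transduced cells, and the effects of line and transduction cannot be told apart. Each line is a single tumour-derived line, and the labels do not state that the libraries of a group stem from separate cultures. All p-values therefore rest on the spread among these libraries, which may be technical.

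Mitochondria have their own ribosome, built from RNA made inside the organelle and from proteins that are encoded in the nucleus. It translates the few membrane proteins of the respiratory chain that the mitochondrial genome encodes, while all other subunits of complexes I to V are nuclear genes. The complexes pass electrons from NADH and succinate to oxygen and use the resulting proton gradient to make ATP, the signal that closes potassium channels and triggers insulin release in beta cells. Almost all of these genes are expressed in every cell with mitochondria, and many have promoters that bind NRF1, GABPA or YY1. H3K9me3 is known as a mark of silent heterochromatin, not of the starts of active genes.

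The 6 ChIP libraries held 4530066 to 9924487 reads in windows, and the median window held 188 to 367 reads. The floor used for a value at 0 was 3 reads, or 2.396 to 4.19 scaled reads, and such floors and counting intervals cover counting error only. The labels of the cell lines were checked against marker genes. Of 9 windows of the alpha cell list, 8 were lower and 1 (Ttr) was higher in betaTC3 than with the empty vector, and of 9 windows of the beta cell list 6 were higher and none lower. Irx1, an alpha cell factor, held 1152 and 1190 scaled reads with the empty vector and 0.799 and 0 in betaTC3, and Pdx1, a beta cell factor, held 5.30 and 0 against 1829 and 1840.5 in its window nearest the start. Signal at most listed alpha and beta cell windows was thus higher in the line of that lineage, the opposite of where a silencing mark is known to lie. The window nearest the start of Nkx6-1, a beta cell factor, was high in both lines. It held 1068 and 1129 with the empty vector and 1223 and 1135 in betaTC3, and was not called. Of the other lists, Sox9 (duct) was lower in betaTC3, and a window of Sst (delta cell) and that of Amy2a5 (acinar) were higher. The libraries are called by their label below, and what the antibody bound was not tested.

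The sequences just upstream of the start are shown for the pair of genes with the largest change at a gene start in each direction between the cell lines (Cox7b2 and Cox7a1), for the alternative isoform of each (Cox7b and Cox7a2), and for the gene with the highest window (Mrpl12). Each run is 250 bases, 5′ to 3′, ending at the base before the start, and is taken from RefSeq (GRCm38.p6). Capitals mark matches, on either strand, to the letters CCAAT, which the factor NFY binds, to GGGCGG, which factors of the SP family bind, and to the TATA box, written as TATAAA.
Cox7b2 (chr5:71548206-71548455, minus strand): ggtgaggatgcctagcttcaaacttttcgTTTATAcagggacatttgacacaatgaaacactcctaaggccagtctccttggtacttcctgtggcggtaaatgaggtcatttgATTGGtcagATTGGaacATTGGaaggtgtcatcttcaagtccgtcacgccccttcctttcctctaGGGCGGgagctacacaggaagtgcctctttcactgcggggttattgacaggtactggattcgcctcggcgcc
Cox7b (chrX:106015450-106015699, plus strand): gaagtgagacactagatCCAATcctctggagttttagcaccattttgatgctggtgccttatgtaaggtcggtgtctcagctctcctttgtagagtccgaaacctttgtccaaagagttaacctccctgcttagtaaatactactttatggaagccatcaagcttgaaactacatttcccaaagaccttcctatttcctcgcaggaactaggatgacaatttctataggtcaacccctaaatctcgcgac
Cox7a1 (chr7:30183921-30184170, plus strand): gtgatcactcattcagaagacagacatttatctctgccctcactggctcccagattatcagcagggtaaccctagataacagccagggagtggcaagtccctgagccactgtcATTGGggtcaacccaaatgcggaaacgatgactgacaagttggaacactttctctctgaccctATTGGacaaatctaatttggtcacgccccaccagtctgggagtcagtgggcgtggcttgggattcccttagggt
Cox7a2 (chr9:79759854-79760103, minus strand): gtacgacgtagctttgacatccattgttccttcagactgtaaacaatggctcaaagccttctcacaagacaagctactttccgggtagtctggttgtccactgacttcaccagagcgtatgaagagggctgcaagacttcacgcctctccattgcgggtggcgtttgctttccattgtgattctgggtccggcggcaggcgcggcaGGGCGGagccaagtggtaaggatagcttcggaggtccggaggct
Mrpl12 (chr11:120484387-120484636, plus strand): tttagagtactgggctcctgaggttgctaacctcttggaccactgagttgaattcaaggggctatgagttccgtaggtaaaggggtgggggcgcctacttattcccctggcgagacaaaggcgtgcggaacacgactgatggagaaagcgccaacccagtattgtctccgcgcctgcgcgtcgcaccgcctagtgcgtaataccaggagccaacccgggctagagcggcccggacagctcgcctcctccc
The Cox7b2 stretch held 3 CCAAT matches, 1 GGGCGG and 1 TATAAA, and that of Cox7a1 held 2 CCAAT matches. Cox7b had 1 CCAAT and Cox7a2 had 1 GGGCGG. Mrpl12 had none of the motifs searched but 18 CpG dinucleotides, against 9 for Cox7b2, 5 for Cox7b, 4 for Cox7a1 and 14 for Cox7a2.

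RefSeq held 129 promoters for 119 of the 140 member genes, each of 300 bases around the start. The letters GCATGCGC, the core of the NRF1 motif, were present on either strand in 16 of them (12.4%), against 2.71% of all 32851 promoters and 5.80% of the 11416 promoters of protein-coding genes that have a window within 1 kb. For CCGGAAG, the ETS family motif that GABPA binds, the shares were 27.9%, 8.86% and 19.2%. For AAGATGGC, the YY1 motif, they were 14.0%, 2.75% and 4.69%. GGGCGG was in 47.3% of the member promoters, more than among all promoters (35.7%) and less than among those with a window (69.0%). For CCAAT the 3 shares were 44.2%, 37.4% and 38.5%, and for TATAAA they were 8.53%, 13.6% and 5.90%. Each motif was searched by itself, so matches of different motifs can overlap, and a match is a description and not a binding site. The median number of CpG dinucleotides per 100 bases was 6.67 in member promoters, 2.33 in all promoters and 7.33 in promoters with a window.

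Nearly every member window sat just inside the gene. Of the 151 windows, 135 lay with their nearest edge within 1 kb of the gene start given in the table, and 16 lay farther away. Of the 135, 127 (94.1%) had their centre downstream of the start, and 112 (83.0%) had it between 100 and 400 bp downstream, with a median of 261 bp. Among all 10256 windows within 1 kb of a protein-coding gene start, 88.9% were downstream, 61.3% lay in that range and the median was 272 bp. The members thus shared the common position and were more tightly placed in it.

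**Figure D1:**
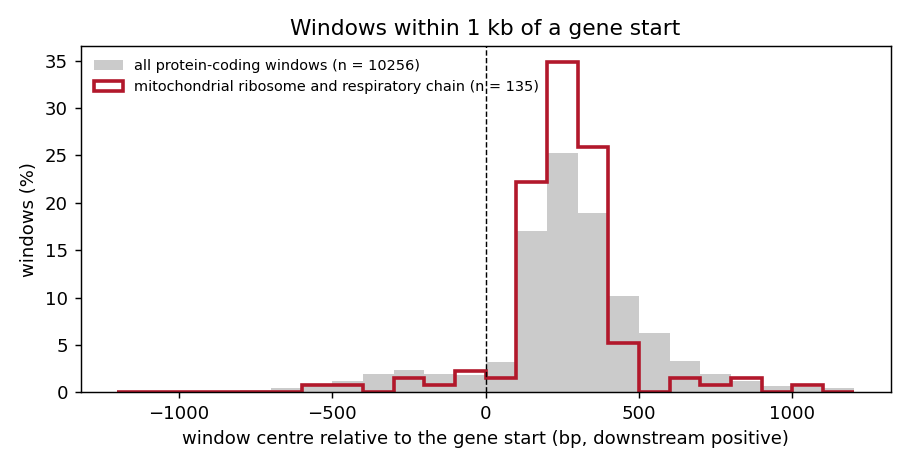
Position of window centres relative to the gene start in bp, with downstream positive, as a percentage of windows, for the 135 member windows and for all 10256 windows within 1 kb of a protein-coding gene start. Both distributions peak 200 to 300 bp downstream, and 83.0% of member windows but 61.3% of all windows lie 100 to 400 bp downstream.

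Some of these starts are shared. For 32 of the 135 windows RefSeq places the start of another gene within 1 kb, so that the reads of one window cannot be divided between the 2 genes. Sdhd faces Timm8b, which encodes an import chaperone of the inner membrane. Mrpl47 faces Ndufb5, and Mrpl46 faces Mrps11, so that these starts join 2 genes of the families. The window assigned to Mrpl36 covers the RefSeq start of Ndufs6, and the one assigned to Ndufs6 covers that of Mrpl36, so the names of this pair are exchanged with respect to RefSeq. The start of Atp5j, a peripheral stalk subunit of complex V with no window of its own, lies 39 bp from the window of Gabpa, which encodes an ETS factor known to act on genes of the respiratory chain.

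RefSeq lists 183 genes under the same names. Of these, 140 had a window of their own and 43 had none, but for 35 of the 43 a window assigned to another gene lay within 1 kb of the start (or of either gene end where no start was listed). Among the 154 family genes with a RefSeq start, 150 (97.4%) had a window within 1 kb, against 9639 of 17491 protein-coding genes (55.1%). Of all 183 genes, 173 had any window within 1 kb. Of the 43 without a window of their own, 8 had no window nearby. For 3 of these 8 (Mrpl34, Ndufb4b and Ndufb4c) each of the 6 peak lists held a peak. The other 5, with neither a window nor a peak, were Cox4i2, Cox6a2, Cox6b2, Cox8b and Cox8c. All 5 encode alternative complex IV subunits that are used mainly in lung, striated muscle, brown fat or testis in place of the common isoform.

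The level of the members was high in all 6 libraries. At the gene start the median member window held 889.7 and 941 scaled reads with the empty vector, 649.8 and 783 with the knockdown and 706 and 682 in betaTC3. The same medians over all protein-coding windows at a start were 597 and 616, 400.1 and 496, and 584 and 509. None of the 135 member windows was at or below 3 reads in any library, whereas 1.31% to 6.18% of all such windows were, depending on the library. In the peak lists, 143 to 146 of the 151 member windows lay under a peak, and 134 of the 135 at starts did so in each list. The authors label the windows as a peak set, and the share of all windows under a peak was not computed. These counts therefore do not set the members apart from other windows. The median peak over a member start was 1472.5 to 1955 bp wide and 36.7 to 57.9 times above the local background by the authors' fold. For all peaks of the same lists, those away from gene starts included, the medians were 1129 to 1287 bp and 22.1 to 33.5 times. Peaks over the starts of other genes were not measured separately.

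The roles overlapped broadly in level. With the empty vector, the median at the start was 758 for the large and 915.5 for the small subunit of the mitochondrial ribosome. In complex I it was 931 for the core subunits, 981 for the accessory subunits counted with Ndufa4, and 625.5 for the assembly factors. It was 834 for complex II, 1266 for complex III, 939 for the subunits of complex IV, 899 for its assembly factors and 1053 for complex V. The large subunit spanned 293 to 2715 as means of the empty-vector libraries, and the 6 windows of complex III spanned 1043 to 1506. Mrpl12 (ENSMUSG00000039640, chr11:120484733-120485133), a large-subunit protein that also binds the mitochondrial RNA polymerase, had the highest mean of all members, with 2672 and 2757 with the empty vector, 1919 and 2407 with the knockdown and 1283 and 1264 in betaTC3. Cox6c, a small subunit of complex IV, was the highest member in betaTC3, at 2211 and 2082 there, 1762 and 2044 with the empty vector and 1360.4 and 1768 after the knockdown. Both were high in every library, but in Mrpl12 the betaTC3 values lay below all alphaTC1 values and in Cox6c above all of them. Against the empty vector, Mrpl12 was called lower, while Cox6c was not called (change 0.18, limma adjusted p = 0.501). Over all windows, both betaTC3 libraries lay below both empty-vector libraries in 48.7% and above both in 34.1%. Cox11, which delivers copper to complex IV, Mrps24 and Mrpl18 completed the 5 highest.

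**Figure D2:**
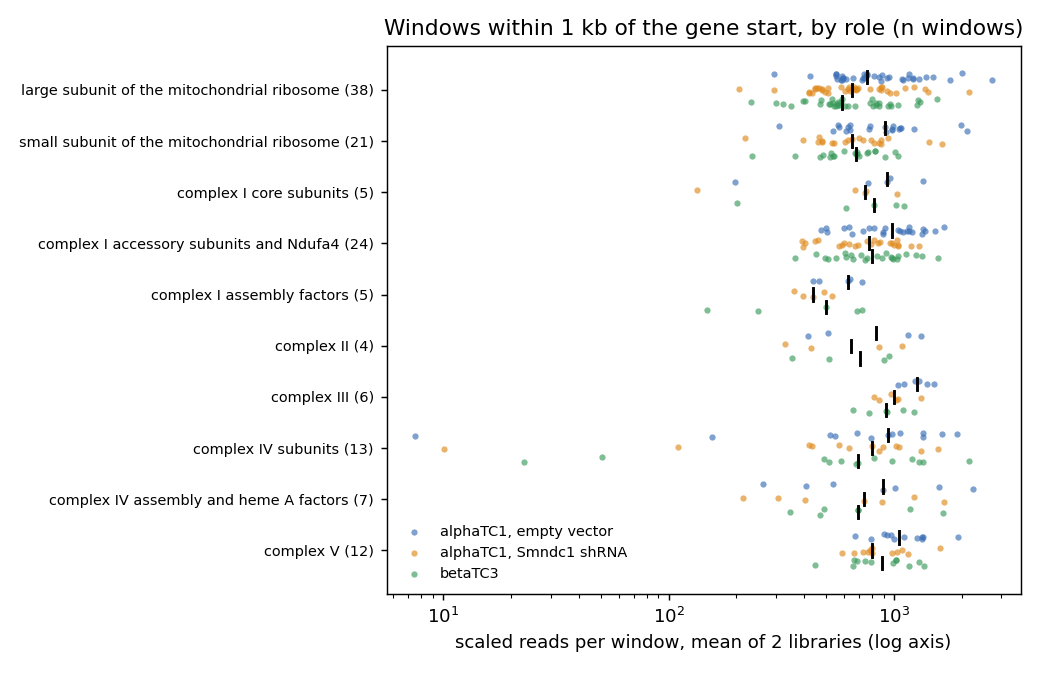
Scaled reads (log axis) of each of the 135 member windows within 1 kb of the gene start, by role, as means of the 2 libraries of each group, with black ticks at the median of each role and group. The windows of all roles overlap, and the points far to the left are Cox7b2 and Cox7a1.

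Among the windows at gene starts the lowest means belonged to Cox7b2 and Cox7a1, which encode alternative isoforms. Cox7b2 (ENSMUSG00000049387, chr5:71547794-71548194), the isoform of Cox7b associated with testis, held 7.94 and 7.102 with the empty vector, 13.1 and 6.99 with the knockdown and 56.7 and 44.7 in betaTC3. It was near the floor in alphaTC1, with a peak in none of the 4 alphaTC1 lists and in both betaTC3 lists, and the betaTC3 values did not overlap the others. Its common partner Cox7b held 506 and 534 with the empty vector, 379.8 and 486 with the knockdown and 599 and 565 in betaTC3. Cox7a1 (ENSMUSG00000074218, chr7:30184111-30184511), the form of subunit 7a known from heart and skeletal muscle, held 149.6 and 163 with the empty vector, 107 and 113 with the knockdown and 20.8 and 24.7 in betaTC3. Here the order was the reverse, with a peak in each of the 4 alphaTC1 lists and in neither betaTC3 list. Cox7a2, the form found in most tissues, held 538 and 552 with the empty vector, 383 and 458 with the knockdown and 514 and 469 in betaTC3, and Cox7a2l, a related protein that joins respiratory complexes, held 1303 and 1389 with the empty vector, 932 and 1173 with the knockdown and 1231 and 1184 in betaTC3. In Ndufa4l2, a relative of the complex IV subunit Ndufa4 that is known to be induced by hypoxia, no window lay within 1 kb of the table's start. Distances from a start run to the window centre, and upstream distances are negative. Its window at -1753 bp held 21.2 and 15.98 with the empty vector, 21.5 and 23.8 with the knockdown and 29.5 and 26.6 in betaTC3, and the one at -2974 bp held 189 and 207 with the empty vector, 125 and 157 with the knockdown and 212 and 239.8 in betaTC3. The window of the gene at -5657 bp overlaps one end of Ndufa4l2 as RefSeq lists it and lay under a peak in each of the 6 lists, with 136 and 129 with the empty vector, 110 and 143 with the knockdown and 115 and 132 in betaTC3. Ndufa4 itself held 1143 and 1199 with the empty vector, 874 and 1051 with the knockdown and 1059 and 1035 in betaTC3. In each Ndufa4l2 window all 6 libraries lay far below those of Ndufa4. Low values were not limited to such isoforms: the start of Ndufs8, a core subunit of complex I, held 172 and 224 with the empty vector, 141 and 126 with the knockdown and 183 and 219 in betaTC3 and several windows away from starts held fewer reads than Cox7a1.

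**Figure D3:**
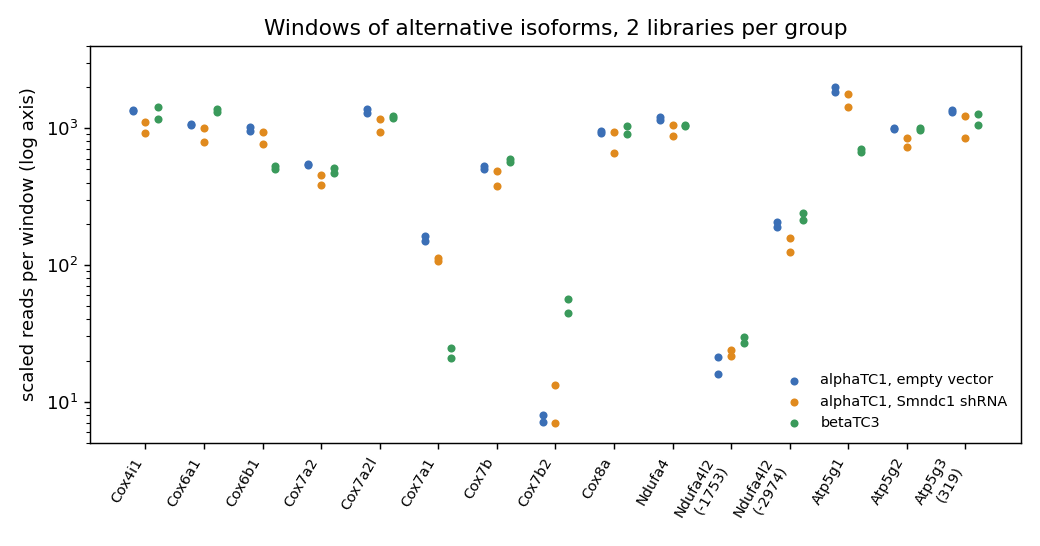
Scaled reads (log axis) in each library at the windows of alternative isoforms, with distances from the gene start in bp in parentheses where a gene has several windows. Cox7a1, Cox7b2 and the Ndufa4l2 window at -1753 bp lie far below the common isoforms in at least one line, and Atp5g1 is the common isoform with the lowest betaTC3 values relative to alphaTC1.

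The first comparison asked what the knockdown of Smndc1, a splicing factor, changed at these genes in alphaTC1 cells. Of the 151 member windows 0 were called by limma at a Benjamini-Hochberg adjusted p below 0.05, and of all 17641 windows 0% were. At an unadjusted p under 0.05 there were 53 member windows (background 6169 windows, 35%), and the smallest adjusted p of a member was 0.117. EdgeR on recovered reads with the authors' scaling also called 0 member windows, with 43 at an unadjusted p under 0.05 and a smallest adjusted p of 0.0723. With their own scaling edgeR and DESeq2 called 0 as well, with 3 and 1 at an unadjusted p under 0.05. Limma on median-centred libraries had 3. Of all windows, 12.4% had such a p with edgeR's own scaling and 13.1% with median-centred limma, larger shares than among the members. For edgeR with the authors' scaling and for DESeq2 the share of all windows is not given here. The number at an unadjusted p under 0.05 thus depends on the scaling. The values leaned one way without passing. Both knockdown libraries were below both empty-vector libraries in 121 of the 151 member windows (80.1%), against 64.6% of all windows. At gene starts the share was 115 of 135 (85.2%), against 80% of all protein-coding windows there, and with a mean of at least 100 scaled reads it was 85.7% against 89.2%. The median log2 change of the members was -0.35, and that of all windows was -0.37. The summed scaled reads over all windows were 5410817 and 6709387 with the knockdown, and 7921856 and 8189318 with the empty vector. When each library was centred on its median, the median of all windows moved from -0.37 to 5.57e-05 and that of the members from -0.35 to 0.03, so their direction rests on the authors' scaling. The part of overall signal in it was not tested.

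The members closest to the threshold came from several roles. Ndufaf6, an assembly factor of complex I, held 726 and 722 scaled reads with the empty vector and 369 and 507 after the knockdown, a log2 change of -0.74 ± 0.20 (SE, limma adjusted p = 0.117). Mrps28 held 320.4 and 296 against 209 and 229, Mrpl50 held 395 and 454 against 303 and 286, and Mrpl17 held 911 and 998 against 658 and 711. In the window of Atp5a1 at -6122 bp, a gene that encodes the alpha subunit of the ATP synthase, the values were 605 and 643 against 409.7 and 482. None of these pairs of groups overlapped, and each had an adjusted p of 0.117. In the opposite direction Cox7b2 (adjusted p = 0.506 by limma), the Ndufa4l2 window at -1753 bp and the Atp5g3 window at -21324 bp had positive changes of 0.32, 0.28 and 0.22, all from windows of few reads. The result rested on knockdown library 2, whose values were the closer ones to the empty vector. Without it, and on the assumption that the remaining knockdown library has the spread of the other groups, limma called 101 member windows lower (34.2% of all windows were then called lower).

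The comparison of the cell lines showed many differences. Between betaTC3 and the empty-vector alphaTC1 libraries, limma called 7 member windows higher and 49 lower at an adjusted p below 0.05, 37.1% of the 151. Of all 17641 windows 22.1% were called higher and 33.2% lower (55.2% in either direction), so the share of lower calls was near the background and that of higher calls was below it. At gene starts 4 of 135 member windows were higher and 44 lower (2.96% and 32.6%), against 16.4% and 28.6% of protein-coding windows there. Both betaTC3 libraries were below both empty-vector libraries in 95 member windows (62.9%, background 48.7%) and above both in 25 (16.6%, background 34.1%). The median log2 change was -0.22 for the members and -0.13 for all windows. When libraries were centred on their medians, the median of all windows moved to 0.05 and that of the members to -0.04, and 27 member windows were called higher and 50 lower (background 34.3% and 31.9%). The scarcity of higher calls therefore depends in part on the scaling, whereas the number of lower calls hardly moved. The count of 56 also moved with single libraries, and so did the share of all windows called. It was 34 without empty-vector library 1 (background 41.3%), 27 without empty-vector library 2 (39.6%), 31 without betaTC3 library 1 (39.7%) and 30 without betaTC3 library 2 (42.3%). It was 71 without knockdown library 1 (60.2%) and 72 without knockdown library 2 (60.3%), which enter this comparison only through the estimate of the spread.

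In the large subunit of the mitochondrial ribosome 3 of 41 windows were higher and 16 lower in betaTC3 (22.1% and 33.2% of all windows), and the median log2 change was -0.25. The balance depended on the scaling. When libraries were centred on their medians, 7 were higher and 17 lower (34.3% and 31.9% of all windows). Windows were also centred on their neighbours, by subtracting the median of the windows beside them in each library. The counts were then 7 and 4 (27% and 24.2% of all windows tested). Mrpl15 (ENSMUSG00000033845, chr1:4785390-4785790) held 629 and 692 with the empty vector, 454 and 569 with the knockdown and 306 and 294 in betaTC3. Both betaTC3 values lay below all others, with a change of -1.13 ± 0.15 (SE, limma adjusted p = 0.000835). Mrpl10, the homologue of a bacterial stalk protein, held 1402 and 1364 with the empty vector and 568 and 559.6 in betaTC3, a change of -1.29 (limma adjusted p = 0.000471). Mrpl45, which tethers the ribosome to the inner membrane, held 663 and 787 against 324 and 317 at its start, a change of -1.17 (limma adjusted p = 0.000597). Mrpl12, named above, had a change of -1.09 (limma adjusted p = 0.00305). The exceptions that were higher at their start were Mrpl52 and Mrpl1. Mrpl1 held 575 and 613 with the empty vector, 399 and 467 with the knockdown and 883 and 839 in betaTC3, and Mrpl52 held 559 and 563 with the empty vector, 363 and 474 with the knockdown and 889.6 and 829 in betaTC3. In both, the betaTC3 libraries lay above all 4 alphaTC1 libraries, with changes of 0.54 and 0.61 (limma adjusted p = 0.0146 and 0.0161). Neither call held when 1 library of these groups was left out: the adjusted p by limma was then 0.0547 to 0.12 for Mrpl1, and 0.0775 to 0.114 for Mrpl52, without empty-vector library 1 or 2 or betaTC3 library 1 or 2.

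The small subunit had 1 higher and 13 lower of 26 windows (22.1% and 33.2% of all windows), with a median change of -0.40. Centred on medians the counts were 3 and 10 (34.3% and 31.9% of all windows). Centred on neighbours they were 1 and 2 (27% and 24.2% of all windows tested). Mrps23 had 4 windows, and all 4 were lower. At its start it held 1933 and 2019 scaled reads with the empty vector, 1438 and 1818 with the knockdown and 787 and 867 in betaTC3, a change of -1.26 (limma adjusted p = 0.00109). Mrps24 fell from 2126 and 2099 to 1152 and 936, a change of -1.02 (limma adjusted p = 0.00562). Mrps35, Mrps9 and Mrps12 had changes of -1.04, -0.91 and -0.80.

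Complex I, the NADH dehydrogenase, had calls among its accessory subunits and assembly factors. Its 5 core windows, which belong to subunits that carry the electron path, gave no call in either direction by limma at an adjusted p below 0.05 (background 55.2%). With libraries centred on their medians 1 of the 5 was higher (34.3% of all windows). Centred on neighbours none was called (51.2% of all windows tested). Of the 29 windows of accessory subunits, counted with Ndufa4 and Ndufa4l2, 1 was higher and 6 lower (22.1% and 33.2% of all windows). The lower ones were led by Ndufa9 (-0.99), Ndufc2 (-0.91) and Ndufa3 (-0.72), and the median of the 29 was -0.09. With libraries centred on their medians the counts were 6 and 8 (34.3% and 31.9% of all windows). Centred on neighbours they were 3 and 2 (27% and 24.2% of all windows tested). Of the 5 assembly factors 2 were lower (33.2% of all windows). Ndufaf2 (ENSMUSG00000068184, chr13:108158307-108158707), a relative of the subunit Ndufa12 that acts late in assembly, held 450.1 and 426 with the empty vector, 317 and 401 with the knockdown and 150.1 and 148 in betaTC3. Its betaTC3 values were far below both alphaTC1 groups, a change of -1.55 ± 0.15 (SE, limma adjusted p = 0.00022). The start of Ercc8, a repair gene, lies 31 bp from the same window.

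Complex II, the succinate dehydrogenase, is encoded entirely in the nucleus and had a window at all 4 genes. Sdha, the flavoprotein, held 508 and 508 with the empty vector, 379.8 and 477 with the knockdown and 529 and 496 in betaTC3, and Sdhb, the iron-sulfur protein, held 1176 and 1144 with the empty vector, 811 and 913 with the knockdown and 901 and 992 in betaTC3. The membrane anchors held 1267 and 1379 with the empty vector, 1029.6 and 1152 with the knockdown and 920.0 and 895 in betaTC3 for Sdhc, and 396 and 435 with the empty vector, 306 and 349 with the knockdown and 338 and 369 in betaTC3 for Sdhd. Only Sdhc was called by limma, with a change of -0.54 ± 0.14 (SE, adjusted p = 0.0176), while Sdha (0.01 ± 0.15), Sdhb (-0.30 ± 0.14) and Sdhd (-0.23 ± 0.14) were not (adjusted p = 0.953, 0.124 and 0.198). In complex III, the cytochrome c reductase, 0 of 6 windows were higher and 2 lower (22.1% and 33.2% of all windows). Uqcr10, a small subunit, fell from 1339 and 1674 to 684 and 634 (change -1.18, limma adjusted p = 0.00162), and Uqcrc1, a core protein, had a change of -0.68.

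Complex IV, the cytochrome c oxidase, held both the largest rise and the largest fall among the 135 windows at gene starts. Of its 13 subunit windows 1 was higher and 3 lower (22.1% and 33.2% of all windows), with a median of 0.02. With libraries centred on their medians 5 were higher and 3 lower (34.3% and 31.9% of all windows). Cox7b2 rose by 2.59 ± 0.35 on the log2 scale (SE, limma adjusted p = 0.000922) and Cox7a1 fell by 2.73 ± 0.20 (limma adjusted p = 5.19e-05), on the scale of log2(scaled reads + 1), which understates changes of low windows. Cox5b fell from 1603 and 1658 to 693 and 667 (change -1.26, limma adjusted p = 0.000756), and Cox6b1 from 953 and 1017 to 529 and 503 (change -0.93). The common subunits Cox4i1, Cox6a1, Cox7a2, Cox7b and Cox8a were not called, with changes of -0.05, 0.34, -0.15, 0.16 and 0.05. Of the 8 windows of assembly and heme A factors 1 was higher and 2 lower (22.1% and 33.2% of all windows). Cox16, an assembly factor of the inner membrane, rose from 270.1 and 252 to 481 and 494 (change 0.90, limma adjusted p = 0.00201), with no overlap with the knockdown values of 193 and 235. Cox11 fell from 2137 and 2371 to 1255 and 1101 (change -0.94, limma adjusted p = 0.00615), and the copper chaperone Cox17 had a change of -0.54.

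In complex V, the ATP synthase, 0 of 14 windows were higher and 4 lower (22.1% and 33.2% of all windows). Centred on medians the counts were 2 and 4 (34.3% and 31.9% of all windows). The c subunit of its rotor is encoded by Atp5g1, Atp5g2 and Atp5g3, which differ in their import signals and yield the same mature protein. Atp5g1 (ENSMUSG00000006057, chr11:96075176-96075576) held 1827 and 2006 with the empty vector, 1419 and 1782 with the knockdown and 667 and 709 in betaTC3. Its betaTC3 values were less than those of any alphaTC1 library, a change of -1.48 ± 0.17 (SE, limma adjusted p = 0.00046). Atp5g2 held 993 and 1009 with the empty vector, 726 and 847 with the knockdown and 1003 and 974 in betaTC3, and the start of Atp5g3 held 1308 and 1368 with the empty vector, 844 and 1228 with the knockdown and 1275 and 1049.7 in betaTC3. Neither was called, with changes of -0.02 and -0.21 (limma adjusted p = 0.924 and 0.45). Atp5e and Atp5d, both of the central stalk, had changes of -0.94 and -0.50.

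The lower calls were unevenly spread over the chromosomes. Of the 44 member windows at starts that were lower in betaTC3, 11 lay on chromosome 11, 6 each on chromosomes 1 and 7 and 5 on chromosome 6. Chromosomes 1, 7 and 6 held 10, 11 and 8 member windows at starts. Of all their windows with a mean of at least 100 scaled reads, 44.7%, 57.0% and 47.6% were lower. On chromosome 11 there were 16 member windows at starts, 11 of them lower, with a median change of -1.05. All 955 windows of that chromosome with a mean of at least 100 scaled reads had a median of -0.73, and 61.5% of them were lower. On chromosome 7 the members' median was -0.47 and that of all windows -0.59, and on chromosome 1 the medians were -0.54 and -0.43. Chromosome 14, with 2 member windows, stood at 0.52 and 0.64, and chromosome 12, also with 2, at 0.63 and 0.42. Outside chromosome 11, 33 of 119 member windows at starts were lower and 4 higher, with a median of -0.21. Over all chromosomes, chromosome 11 included, 32.6% of the 135 member windows at starts were lower and 2.96% higher. The like shares of all protein-coding windows at starts were 28.6% and 16.4%. The shares of all windows without chromosome 11 were not computed, so the counts outside it have no like background.

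**Figure D4:**
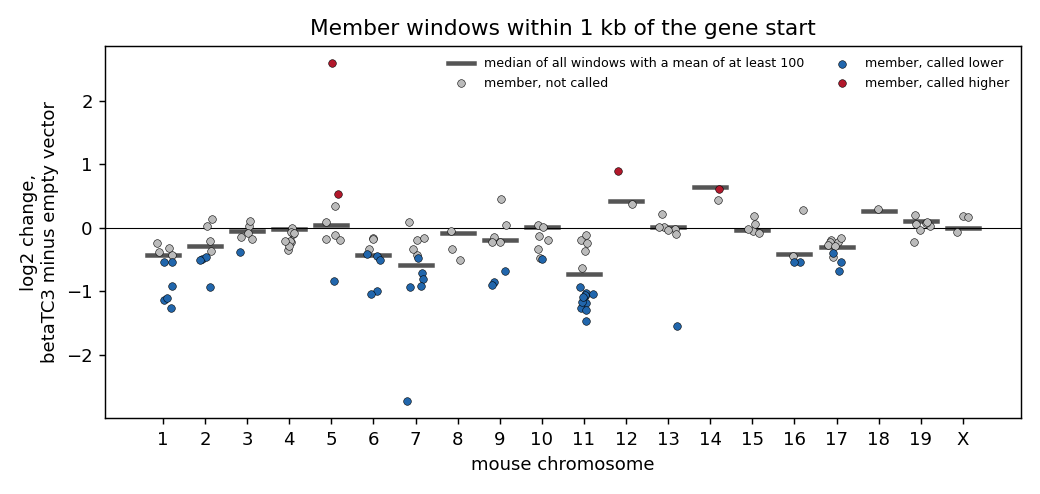
Log2 change from empty-vector alphaTC1 to betaTC3 of each of the 135 member windows at a gene start, by chromosome, with blue for windows called lower, red for higher and grey for not called, and a bar at the median of all windows of the chromosome with a mean of at least 100 scaled reads. Most members lie near the bar of their chromosome, which stands at -0.73 on chromosome 11 and at 0.64 on chromosome 14.

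Member windows also moved with the windows beside them. The change of each of the 135 windows was set beside the median change of its 10 nearest windows on each side with a mean of at least 100. Pearson's r across the 135 windows was 0.735, a description only, since all points share the 6 libraries and close members share neighbours. With the neighbours' median subtracted in each library, a setting added after the data had been seen, the SD of the members' changes fell from 0.56 to 0.38, and the number within 0.5 of 0 rose from 93 to 120. In that setting limma called 15 of the 151 member windows higher and 20 lower, against 27% and 24.2% of all windows tested. Of the 44 lower windows at starts 8 were still called lower and 2 were called higher. The 8 were Mrpl15, Cox5b, Mrpl44, Atp5d, Ndufaf2, Ndufv3, Cox7a1 and Mrpl4, and the 2 were Cox11 and Mrpl27, both on chromosome 11. For Cox7a1 the neighbours changed by -0.87 and the difference from them was -1.86, for Cox7b2 0.30 and 2.30, and for Mrpl15 -0.12 and -1.02. For Ndufaf2 the difference was -0.72, for Cox16 0.52 and for Mrpl1 0.59, and each of these 6 windows was still called by limma in its own direction. Atp5g1 lay in a stretch that changed by -1.29 and differed from it by -0.19, and Mrpl12 differed from its neighbours by -0.14; neither difference was called. Mrpl10 and Mrpl52 changed sign, to 0.21 and -0.11.

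**Figure D5:**
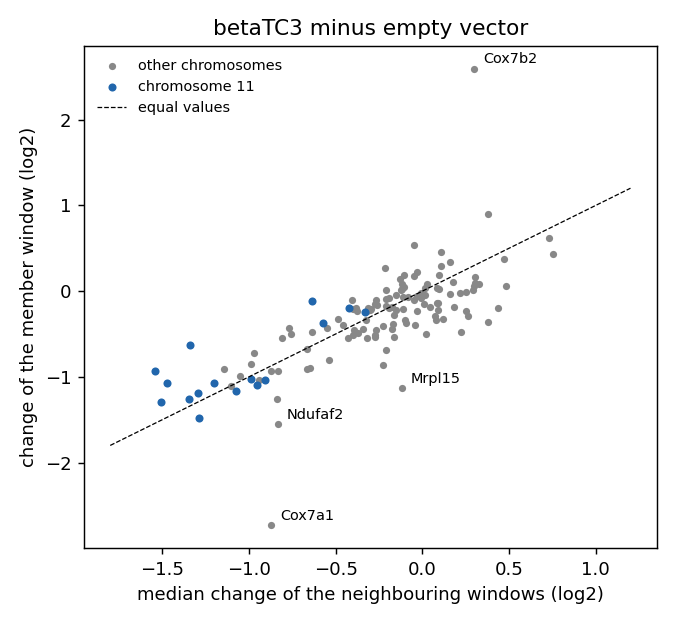
Log2 change from empty-vector alphaTC1 to betaTC3 of each member window at a gene start (vertical) against the median change of its neighbouring windows (horizontal), with chromosome 11 in blue and a dashed line where both are equal. Most points follow the line (Pearson's r = 0.735, n = 135 windows), and Cox7b2, Cox7a1, Mrpl15 and Ndufaf2 lie off it.

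The 16 member windows beyond 1 kb from the start included the largest change of all. The window 3155 bp downstream of the start of Mrps5 (ENSMUSG00000027374, chr2:127590177-127590577) held 1.32 and 0 with the empty vector, 0 and 0 with the knockdown and 43.9 and 60.9 in betaTC3. It was at the floor in alphaTC1 and clearly above it in both betaTC3 libraries, and its pooled ratio to the empty vector was 97.2 (exact 95% counting interval 17.1 to 3872) and to the knockdown at least 13.5-fold higher at 3 reads per library. The main window of Mrps5 at its start held 961 and 1028 with the empty vector, 770.4 and 987 with the knockdown and 988 and 1032 in betaTC3, a change of 0.02 that was not called (limma adjusted p = 0.92). Mrps23 had 3 windows away from its start, at -42606, -23158 and 11425 bp. The last of these held 199.9 and 262 with the empty vector, 177 and 204 with the knockdown and 35.1 and 34.3 in betaTC3, a change of -2.69 ± 0.20 (SE, limma adjusted p = 5.78e-05), which was larger than that of the start and lay 1.47 below the neighbours on the log2 scale. The window at -23158 bp fell from 27.8 and 35.5 to 3.19 and 4.76, near the floor. Mrpl58, a ribosome rescue factor, had a window at -3122 bp that lies 422 bp from the start of Gm32013, with 167 and 208 with the empty vector, 109 and 102 with the knockdown and 23.2 and 36.2 in betaTC3 (change -2.64, limma adjusted p = 0.00021). Mrpl45 had one at -4827 bp, 16 bp from the start of Gm31005, which moved the opposite way from the start of Mrpl45, with 13.2 and 7.102 with the empty vector, 16.7 and 1.398 with the knockdown and 67.9 and 83.7 in betaTC3 (change 2.83, limma adjusted p = 0.0314). That call was lost without any 1 of the empty-vector or betaTC3 libraries, with adjusted p of 0.0848 to 0.218 by limma. The window of Ndufa6 at -10408 bp held 6.62 and 1.78 with the empty vector, 2.39 and 1.398 with the knockdown and 11.98 and 20.9 in betaTC3, with 3 to 7 reads in all per alphaTC1 group (change 1.88, limma adjusted p = 0.0253, and 0.0579 to 0.191 when empty-vector library 2, either knockdown library or either betaTC3 library was left out). The window of Atp5g3 at -21324 bp fell from 14.6 and 21.3 to 1.597 and 6.66 (limma adjusted p = 0.0149, and 0.0935 without empty-vector library 2). Cox19, a copper-handling factor of complex IV, is listed at 6512 bp from the table's start, but its window lies 60 bp from the RefSeq start of Cox19 itself and held 1127 and 1103 with the empty vector, 786 and 941 with the knockdown and 979.9 and 1015 in betaTC3, like a window at a gene start. The window of Mrps27, 8807 bp downstream of its start, held 58.3 and 55.04 with the empty vector, 44.2 and 61.5 with the knockdown and 45.5 and 50.4 in betaTC3, without a call in any comparison.

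Against the knockdown libraries, betaTC3 had 25 member windows higher and 28 lower by limma at an adjusted p below 0.05 (background 36.6% higher and 24% lower, 60.6% in either direction). This comparison shares the betaTC3 libraries with the one above, so the 2 are not independent. The median change of the members was 0.12, and that of all windows 0.23. Centred on their medians the libraries gave 0.04 for all windows and -0.07 for the members, with 26 higher and 55 lower (background 35.9% and 33.4%), so the balance between the directions, 47.2% higher of all calls as scaled by the authors and 32.1% when centred, depends on the scaling. The total depended on single libraries. It was 34 without either empty-vector library (background 49.4% in both fits), 55 without knockdown library 1 (52.5%), 85 without knockdown library 2 (62.7%), 19 without betaTC3 library 1 (37%) and 20 without betaTC3 library 2 (47.2%). The members at the extremes were those of the comparison with the empty vector. Cox7a1 had a change of -2.23 (limma adjusted p = 0.000126), against -2.73 from the empty vector, Ndufaf2 had -1.25 against -1.55, and Atp5g1 had -1.21 against -1.48. In the other direction Cox7b2 had 2.27 against 2.59, Cox16 1.19 against 0.90, Mrpl52 1.05 against 0.61, and Mrpl1 0.99 against 0.54. Mrpl3, a large-subunit protein, held 560.0 and 611 with the empty vector, 362 and 527 with the knockdown and 847 and 756 in betaTC3, and passed here (change 0.87, limma adjusted p = 0.00928) but not against the empty vector (change 0.45, adjusted p = 0.097). The first of these calls was lost without betaTC3 library 1 (adjusted p = 0.11 by limma) or 2 (0.0664).

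Genes that serve the same pathways under other names were also compared between betaTC3 and the empty vector. All 26 listed factors of mitochondrial transcription, replication and translation had windows, 30 in all, of which 1 was higher and 10 lower (22.1% and 33.2% of all windows), with a median change of -0.31. The counts were 3 and 8 when libraries were centred on their medians (34.3% and 31.9% of all windows). They were 1 and 4 when windows were centred on their neighbours (27% and 24.2% of all windows tested). Tfb1m, the methyltransferase of the small ribosomal RNA, fell from 377 and 410.1 to 169 and 211 scaled reads (change -1.06, limma adjusted p = 0.00157), Polg2, the accessory subunit of the mitochondrial DNA polymerase, had a change of -1.26, and Taco1, a translational activator of a complex IV subunit, had -1.21. Of the 5 ribosomal proteins under other names 4 had a window, 1 of them higher (Chchd1, 0.53) and none lower (22.1% and 33.2% of all windows). Centred on medians 2 were higher and 0 lower (34.3% and 31.9% of all windows). Centred on neighbours none was called (51.2% of all windows tested). Chchd1 changed sign when centred on neighbours, to -0.18. Of 40 other assembly factors and electron carriers 28 had windows, 30 in all, with 0 higher and 16 lower by limma (22.1% and 33.2% of all windows) and a median of -0.51. Centred on medians the counts were 4 and 18 (34.3% and 31.9% of all windows). Centred on neighbours they were 1 and 7 (27% and 24.2% of all windows tested). The largest falls as scaled by the authors were in windows of Coa6 and Sco2, which both act in the delivery of copper to complex IV. The window of Coa6 with the largest change lies at -123685 bp from its start. It held 181 and 183 with the empty vector, 148 and 186 with the knockdown and 27.2 and 19.03 in betaTC3. Its change was -2.95 (limma adjusted p = 8.16e-05). The start of Coa6 held 928 and 952 with the empty vector against 616 and 640 in betaTC3 (change -0.58, limma adjusted p = 0.0118). Sco2 fell from 735 and 744 to 245 and 262 (change -1.54, limma adjusted p = 9.63e-05). The nuclear regulators had 12 windows at 10 of 12 genes, 1 higher and 2 lower (22.1% and 33.2% of all windows). With either centring 5 were higher and 2 lower, so this balance turned with the scaling. The shares of all windows were 34.3% and 31.9% centred on medians, and 27% and 24.2% centred on neighbours. Yy1 held 1202 and 1163 with the empty vector, 646 and 929 with the knockdown and 2815 and 1922 in betaTC3 (change 0.98, limma adjusted p = 0.0163). Ppargc1a, the coactivator that drives mitochondrial biogenesis, held 473 and 558 with the empty vector, 420.4 and 425 with the knockdown and 0 and 4.76 in betaTC3 in a window at -13545 bp and 888 and 1004 with the empty vector, 776 and 942 with the knockdown and 194 and 181 in betaTC3 in a window at its start (changes -7.74 and -2.33, limma adjusted p = 0.000167 and 3.25e-05). These were the largest falls among the listed regulators, and in betaTC3 the upstream window was near the floor.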

How the data were processed

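Single reads of 50 bp were sequenced, per the labels' protocols. Bowtie2 2.4.1, Picard 2.19.2, MACS2 2.2.7.1 and the build mm10 (GRCm38) are named in the submitters' processing notes, without further settings. The authors deposited a peak list for each library, with the group's input as control per the peak names, and with a score, a fold over the local background (a ratio) and −log10 p-values and q-values, which are the authors' own. Of these only positions, widths and folds are used, to describe peaks within a list. The authors also deposited a table of 17641 windows with a normalised signal per library, of which 14 are assigned to 2 genes each.

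Every signal value was a whole multiple of 1 step per library (100% of values within a tolerance of 0.001), in the order of the replicates 1.324 and 0.8878 (empty vector), 1.194 and 1.398 (knockdown), and 0.7986 and 0.9516 (betaTC3). The derivation of these factors and any subtraction of input reads are not given in the sources used here. With subtraction, 0 would mean that a window did not exceed its input, and floors and counting intervals describe only the reads left. Input samples were not analysed separately.

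Limma 3.58.1 (R 4.3.3) was fitted with an intensity trend to log2(signal + 1) of all 6 libraries, with a mean per group. Adjustment over all 17641 windows followed Benjamini and Hochberg, and called means an adjusted p below 0.05. EdgeR 4.0.16 and DESeq2 1.42.0 on the recovered reads, other scalings, pseudocounts of 0.1 and 10, a minimum mean of 10, a fit without the trend, a fit of only the groups compared, a replicate block and leaving out each library were the alternatives, and the fit was tested on simulated data. Centring on neighbouring windows was added after the data had been seen. The members, the role, pathway, isoform and marker lists and the motifs were chosen with earlier results of these data known. Named windows are, per comparison and direction, up to 10 called members of largest change (or the 5 of smallest p where fewer than 5 were called), complex II, the isoforms, the 5 highest and 5 lowest members, up to 10 beyond 1 kb, and up to 3 called windows per direction of each pathway list. Other members that are named were chosen after their values were seen. Gene starts are those of the table, and promoters and other starts come from RefSeq (GRCm38.p6). Distances to a start run from the window centre, with upstream negative, except that "within 1 kb", and distances to a RefSeq start, run from the nearest window edge. The marker lists, summed over their windows, held 3328 to 3395 scaled reads for alpha cells with the empty vector, 2740 to 3594 with the knockdown and 654 to 679.6 in betaTC3. For beta cells the sums were 1161 to 1194, 780.0 to 1019 and 5313 to 5849, for 2 delta cell windows 35.7 to 39.9, 38.2 to 44.7 and 139.8 to 174, for 1 acinar window 5.33 to 9.27, 3.58 to 12.6 and 54.2 to 57.5, and for 1 duct window 545 to 601, 465 to 598 and 3.99 to 4.76. Their part in any result was not tested. Replicate numbers were checked as pairs through the correlation of same-numbered deviations, which was -0.0079, 0.085 and -0.176 for the 3 pairs of groups, so they were not used as pairs.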

Additional observations from a re-analysis of the deposited data

How the results depend on the processing

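Between knockdown and empty vector, the count of called members stayed at 0 under every alternative that was run except when knockdown library 2 was left out, with a range of 0 to 101 over the fits that leave out 1 library. The median change of the members was -0.35 as scaled by the authors, 0.028 with libraries centred on their medians, 0.031 with edgeR's own scaling, 0.022 with DESeq2, 0.014 centred by chromosome and 0.092 centred on neighbours. For betaTC3 minus empty vector the 56 calls became 35 when centred on neighbours and 27 to 72 with 1 library left out. The median of -0.22 became -0.040 centred on medians, -0.049 with edgeR, 0.0058 with DESeq2, -0.043 by chromosome, -0.054 on neighbours, and -0.29 to -0.17 with 1 library left out. For betaTC3 minus knockdown the 53 calls became 81 centred on medians, 80 with edgeR, 32 with only the groups compared and 19 to 85 with 1 library left out. The median of 0.12 became -0.075 centred on medians, -0.087 with edgeR, -0.054 by chromosome, -0.13 on neighbours and -0.025 to 0.26 with 1 library left out. The share of all windows called moved as well. For betaTC3 minus empty vector it was 55.2% as scaled by the authors and 51.2% on neighbours. For betaTC3 minus knockdown it was 60.6% as scaled by the authors, 69.3% centred on medians and 70.3% with edgeR. It is not given here for the fit of only the groups compared. A fit that leaves 1 library in a group assumes that it varies like the other groups. Apart from these constructions the cause of each shift was not tested.

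With the replicate number as a block, limma called 0, 50 and 48 members in the 3 comparisons. The share of all windows called with the block is not given here, so these counts have no background beside them. The replicate numbers are not known to pair the libraries.

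Over 45 changes of named windows, 753 refits kept the direction and the side of the threshold, 44 kept the direction but no longer passed, 4 newly passed and 7 changed sign. The sign changes from betaTC3 minus empty vector were Mrpl52 (-0.093 by chromosome, -0.11 on neighbours) and Mrpl10 (0.21 on neighbours), and those from betaTC3 minus knockdown were Mrpl52 (-0.030 by chromosome, -0.000403 on neighbours). In knockdown minus empty vector Cox7b2 ranged from -0.092 (without knockdown library 1) to 0.73 (without knockdown library 2), and the Atp5g3 window at -21324 bp from -0.044 (without empty-vector library 1) to 0.47 (without empty-vector library 2), and neither was called. With 2 libraries per group and windows of few reads in alphaTC1, changes of the distant windows are the least precise. No expression was measured, and reads shared by divergent genes cannot be divided.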
